A study of Homo sapiens with 14 samples.

Results

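The mitochondrial ribosomal protein genes are nuclear genes that encode the protein subunits of the ribosome inside mitochondria. They were taken as the protein-coding genes of the GENCODE annotation of GRCh38 whose symbol begins with MRPL or MRPS and continues with a digit. The rule used no measured value and gave 78 of the 58440 genes in the files, 49 with MRPL and 29 with MRPS symbols. These genes lie on 21 chromosomes, with 8 each on chromosomes 1, 2 and 17 and 7 on chromosome 11. MRPL symbols mark the large subunit of this ribosome and MRPS symbols the small subunit, with a few historical exceptions such as MRPS30, whose product sits in the large subunit.

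The mitochondrial ribosome translates the mRNAs of mitochondrial DNA, which encode core subunits of the respiratory chain and of ATP synthase. Its rRNAs come from mitochondrial DNA, whereas its proteins are made in the cytosol and imported. Some of these proteins descend from bacterial ribosomal proteins, and others were added in the mitochondrial lineage.

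RNA-seq was examined for 14 libraries from mixtures of 2 human cell lines, HEK-293T and Jurkat. HEK-293T is an adherent, epithelial-like embryonic kidney line that carries SV40 large T antigen, and Jurkat is a suspension line from a T cell leukemia. There were 2 libraries of pure HEK, 2 of pure Jurkat, and 2 for every mixture, in which HEK cells made up 80%, 60%, 50%, 40% or 20% of an equal total number of cells. HEK cells were grown in DMEM and Jurkat cells in RPMI, so line and medium cannot be told apart. No cell received a treatment, and every library had ERCC spike-ins, synthetic RNAs put into the captured mRNA. Per the labels, libraries of 1 condition are technical replicates. SD and p-values here therefore measure only the spread between these libraries.

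Expected counts are the read counts per gene that RSEM gives after it divides reads that fit several genes, and CPM are these counts scaled to one fixed sum over genes without spike-ins, in the usual counts-per-million unit. The libraries held between 4468822 and 28303668 gene counts, with a median of 13505082, and the share of spike-ins was between 0.674% and 7.65%. Barcoded cDNA was pooled by Actb qPCR values, so the pooling set depth in part. The genes of interest held 60194 and 89860 counts in the pure HEK libraries but 21001 and 25832 in the pure Jurkat libraries, so values are less precise in Jurkat. The names of the deposited files fall into a group that holds both pure HEK libraries and a group that holds both pure Jurkat libraries. In the pure libraries this grouping and the line cannot be told apart. All 10 T cell markers were higher in Jurkat, with a summed level of 6.24 and 2.77 CPM in HEK against 2481 and 2916 CPM in Jurkat, and 5 of them had 3 or fewer counts in both HEK libraries. All 10 markers listed for HEK were higher in HEK, at 305 and 335 CPM against 52.3 and 41.8 CPM, and 5 of them had 3 or fewer counts in both Jurkat libraries. All 20 passed adjusted p 0.05 with edgeR.

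Every one of the 78 genes was measured in every library. The lowest value in a pure library was 24 counts, and all 78 passed the low-count filter of both fits. Over the 14 libraries their mean levels ran from 8.81 to 351 CPM. Per length, in TPM, where counts divided by effective length are scaled to a fixed sum over genes without spike-ins, the median of the 78 means was 66.3 TPM. The cDNA was primed at the poly(A) tail, so a level divided by transcript length rests on an assumption about coverage that was not tested.

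The highest TPM belonged to MRPS18C, a homolog of bacterial S18, with a median of 407 TPM and a range from 316 to 645 TPM over the 14 libraries. MRPL51, a protein specific to mitochondria, followed with 352 TPM (213 to 510). MRPS5, the counterpart of bacterial S5, had 256 TPM (165 to 364). These ranges overlapped, so the order among them was not fixed from library to library. MRPS18B (median 221 TPM, 160 to 286) and MRPS33 (219 TPM, 116 to 344) came next and had nearly the same median. At the low end of the mean over libraries, MRPL50 had a median of 5.96 TPM (3.68 to 9.85). MRPL44, which has a fold related to ribonuclease III, had 12.7 TPM (7.33 to 17.6). MRPL23, the counterpart of a bacterial protein at the exit of the peptide tunnel, had 13.3 TPM (6.45 to 22.7), and its range overlapped that of MRPL44. By the median, MRPL39 lay between MRPL50 and MRPL44 with 9.10 TPM (6.08 to 147), and its mean was raised by a single library described below. The S18 paralogs spanned both ends of the family, since MRPS18A had a median of only 16.4 TPM (11.0 to 26.6). The highest MRPS18A value lay below the lowest value of MRPS18B and of MRPS18C. The expected counts of MRPS18C and MRPL51 were not whole numbers in any of the 14 libraries. Here and below, such counts are read as divided with other loci, so these levels are less certain. The share of reads that was divided was not measured.

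The comparison of pure lines asked which of these genes differ between HEK and Jurkat cells. In edgeR's quasi-likelihood test at adjusted p 0.05, 22 of the 78 genes (28.2%) were higher in HEK, where 24.2% of the 15794 genes tested were. Only MRPL57 (1.28%) was higher in Jurkat, where 19.0% of all genes tested were. Among protein-coding genes within the same range of mean CPM the shares were 23.9% and 17.9%. In this fit the share called higher in HEK was thus near the background, and the share called higher in Jurkat was below it. Counts and shares of other fits are given at the end. At unadjusted p under 0.05 the counts were 32 higher in HEK (41.0%, against 29.1% of all genes tested) and 1 higher in Jurkat (1.28%, against 23.6%).

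The direction was one-sided beyond the called genes. In CPM, both HEK libraries lay above both Jurkat libraries for 59 of the 78 genes (75.6%), against 47.2% of all genes tested and 49.1% of protein-coding genes in the CPM range. Both lay below for only 3 (3.85%), against 27.6% and 25.8%. These 3 were MRPL57, MRPL16 and MRPS5, named here after their values were seen, and the values of the other 16 genes overlapped between lines. With TMM-scaled CPM, 57 lay above, against 45.3% of all genes, and 3 below. The median log2 fold change was 0.42 over the 78 genes and 0.07 over all genes tested, and the lower quartiles were 0.07 and -0.79. Of the 78 estimates 63 were positive, and the share of positive estimates over all genes was not computed. In mean CPM the medians were 0.65 and 0.26, so TMM lowered the log2 fold changes of the 78 genes by a median of 0.23.

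The scale matters for the direction. When libraries were scaled by spike-in counts, which sets them to RNA per spike-in rather than to share of RNA, all 78 genes were called higher in HEK with edgeR, as were 92.5% of all genes. Their median log2 fold change was then 4.01, against 3.61 over all genes. All levels and fold changes below are relative to the other genes of the same library.

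**Figure D1:**
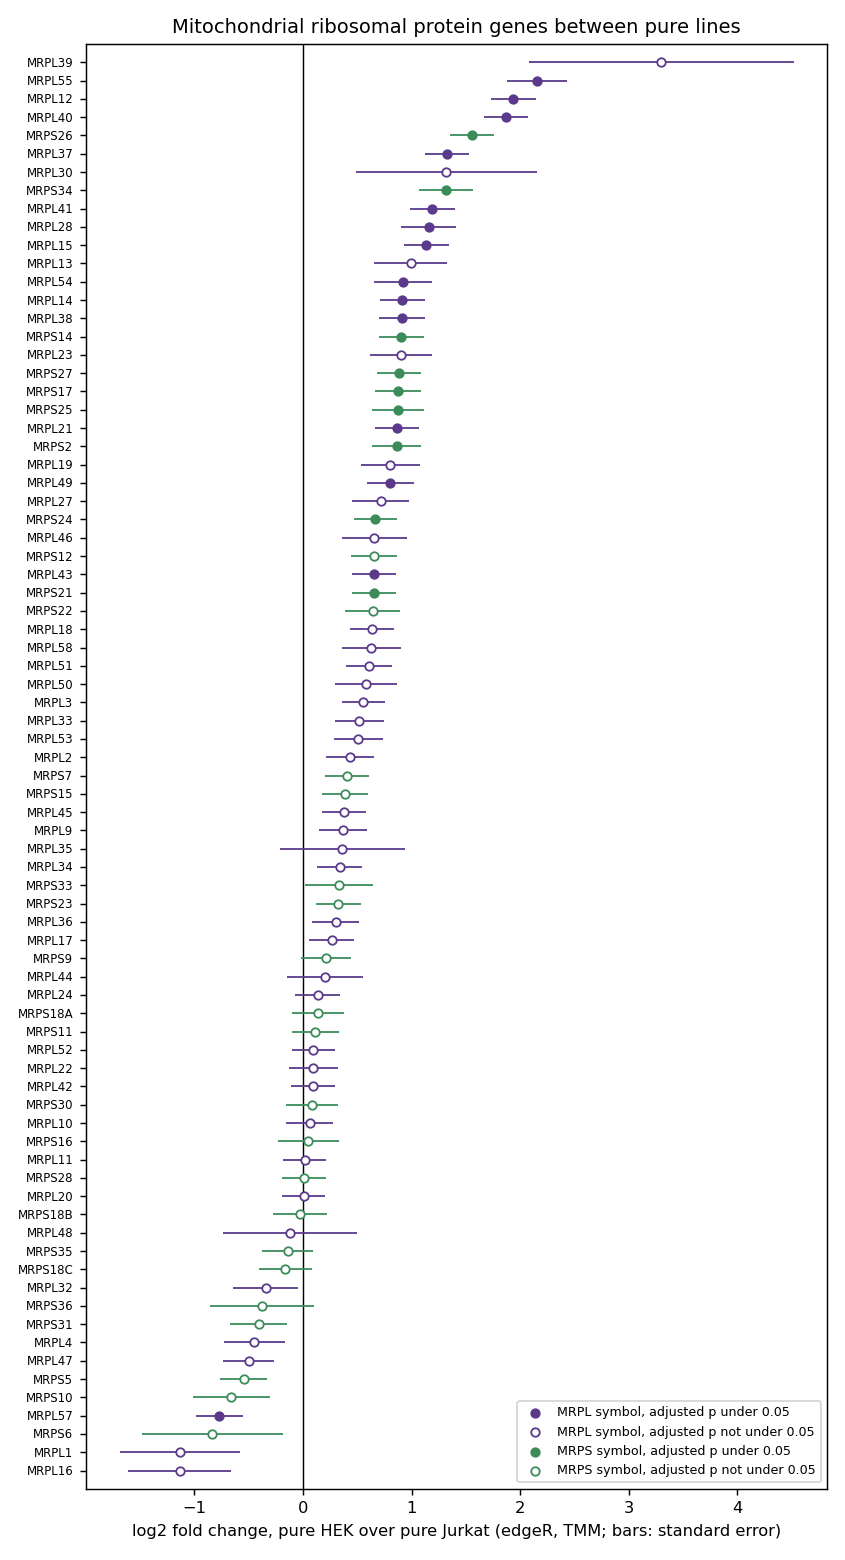
log2 fold change of each of the 78 genes, pure HEK over pure Jurkat (edgeR, TMM-normalized, 2 libraries per line), with bars of 1 standard error and genes ordered by value. Purple marks MRPL and green MRPS symbols, and filled points passed adjusted p 0.05. The filled points are 22 genes to the right of 0 and MRPL57 to the left, and the open point furthest to the right is MRPL39, with the widest bar.

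The largest called fold change belonged to MRPL55, the mitochondrial counterpart of bacterial L31. It had 89.5 and 77.4 CPM in the pure HEK libraries and 13.0 and 18.9 CPM in the pure Jurkat libraries, and the 10 mixed libraries ran from 61.1 to 116 CPM. Its log2 fold change was 2.15 (SE 0.27, edgeR adjusted p = 0.00399). Every mixed library lay above both Jurkat libraries.

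MRPL12, the counterpart of bacterial L7/L12, forms the flexible stalk that binds translation factors. Its levels were 117 and 117 CPM in HEK and 24.4 and 27.7 CPM in Jurkat, and the mixed libraries ran from 72.7 to 174 CPM. The log2 fold change was 1.94 (SE 0.21, edgeR adjusted p = 0.00251). MRPL10, which anchors MRPL12 to the large subunit, did not pass, with a log2 fold change of 0.06.

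MRPL40, a protein of the large subunit specific to mitochondria, had 107 and 112 CPM in HEK and 24.7 and 26.7 CPM in Jurkat, with 79.7 to 137 CPM in the mixed libraries. Its log2 fold change was 1.87 (SE 0.20, edgeR adjusted p = 0.00258). Its counts were divided with other loci in all 14 libraries. MRPS26, a protein of the small subunit specific to mitochondria, had 76.2 and 81.6 CPM in HEK and 24.2 and 21.8 CPM in Jurkat, with 52.7 to 130 CPM in the mixed libraries. Its log2 fold change was 1.56 (SE 0.21, edgeR adjusted p = 0.00443).

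MRPL37, also specific to mitochondria, had 147 and 131 CPM in HEK against 47.4 and 47.1 CPM in Jurkat, a log2 fold change of 1.33 (SE 0.20, edgeR adjusted p = 0.00634). MRPS34, a small subunit protein specific to mitochondria, had 125 and 161 CPM against 44.1 and 54.0 CPM, a log2 fold change of 1.32 (SE 0.25, edgeR adjusted p = 0.0119). Neither overlapped between lines. Without the second HEK library the call of MRPS34 was lost (edgeR adjusted p = 0.0756), with a log2 fold change of 1.14. MRPL55, MRPL12, MRPL40, MRPS26 and MRPL37 kept their calls without any single pure library. In each fit that leaves out a pure library, here and below, 1 line has a single library that is assumed to vary like the 2 libraries of the other line.

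The other 16 genes called higher in HEK had log2 fold changes from 0.65 to 1.19. In the large subunit they were MRPL41, MRPL28, MRPL15, MRPL54, MRPL14, MRPL38, MRPL21, MRPL49 and MRPL43. In the small subunit they were MRPS14, MRPS27, MRPS17, MRPS25, MRPS2, MRPS24 and MRPS21. MRPL41 led them with 64.4 and 56.6 CPM in HEK and 22.4 and 22.9 CPM in Jurkat, and MRPS21, the counterpart of bacterial S21, closed the list with 187 and 204 CPM against 102 and 111 CPM. The calls depended on the number of libraries. Without the first HEK library 7 genes were called higher in HEK (11.3% of all genes tested), without the second HEK library 7 (11.0%), without the first Jurkat library 16 (19.6%) and without the second 15 (18.4%). With no low-count filter, 34 were called, and 16.9% of all genes.

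MRPL57, a small large-subunit protein specific to mitochondria, was the single gene called higher in Jurkat. It had 79.7 and 81.9 CPM in HEK and 105 and 130 CPM in Jurkat, with 79.7 to 99.7 CPM in the mixed libraries. The log2 fold change was -0.77 (SE 0.22, edgeR adjusted p = 0.0397). This call was lost with DESeq2 (adjusted p = 0.0657), with limma on TPM (adjusted p = 0.0803), with no filter (edgeR adjusted p = 0.118) and without either HEK library or the second Jurkat library.

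The called genes were spread over the structural classes, apart from the S18 paralogs. Of 30 large-subunit genes of bacterial families, 6 were higher in HEK, and of 20 large-subunit genes specific to mitochondria 7 were higher and 1 lower. Of 16 small-subunit genes of bacterial families, 5 were higher in HEK, and of 9 specific to mitochondria 4 were. The median log2 fold changes were 0.40 and 0.62 in the large subunit and 0.30 and 0.64 in the small subunit, in the same order. The small-subunit counts and medians include MRPS36, which was not called and whose protein is now known as part of another complex, named below. Whether the classes differ was not tested. None of the S18 paralogs passed, with log2 fold changes of 0.14 for MRPS18A, -0.02 for MRPS18B and -0.16 for MRPS18C.

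Promoters of 3 of the 4 genes with the largest called fold changes are shown because genes for the mitochondrial ribosome are known targets of ETS family factors such as GABP, of NRF1 and of YY1. RefSeq held a window of 250 bases before the gene start for 69 of the 78 genes. The ETS letters CCGGAAG were found on either strand in 23 of these windows (33.3%), against 8.82% of 27305 promoters of the same length. That background was not restricted to protein-coding or expressed genes, so the shares do not single out this family among expressed genes. Of the 20 windows of genes called higher in HEK, 7 (35.0%) held them, so the share was close to that of all 69. The NRF1 letters CGCATGC were in 7 windows (10.1%, against 3.57%) and the YY1 letters AGATGGC in 6 (8.70%, against 3.40%), and none of these windows belonged to a gene called higher in HEK. None of the 3 motifs contains another, both strands were searched for each, and at least 1 was in 32 windows (46.4%, against 14.7%). A match describes the letters only. The windows below are from RefSeq on GRCh38.p14, 5′ to 3′ on the strand of the gene, with annotated exon bases left out and ETS matches in capitals. MRPL12 is not shown because annotated exons cover 201 bases of its window. MRPL55 lies on the minus strand at chr1:228109313-228109549 and held no match, MRPL40 on the plus strand at chr22:19432295-19432544 with a match near its end, and MRPS26 on the plus strand at chr20:3045802-3046051 with the match on the reverse strand.
MRPL55: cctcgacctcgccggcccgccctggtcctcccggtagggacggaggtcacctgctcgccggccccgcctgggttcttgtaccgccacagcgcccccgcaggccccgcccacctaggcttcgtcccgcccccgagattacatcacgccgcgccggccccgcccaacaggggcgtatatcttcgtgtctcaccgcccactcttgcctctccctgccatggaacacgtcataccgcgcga
MRPL40: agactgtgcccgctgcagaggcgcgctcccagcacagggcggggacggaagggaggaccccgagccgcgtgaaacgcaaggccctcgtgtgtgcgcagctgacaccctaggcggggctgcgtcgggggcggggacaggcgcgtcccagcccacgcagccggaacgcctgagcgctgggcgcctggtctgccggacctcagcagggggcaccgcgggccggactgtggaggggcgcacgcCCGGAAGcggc
MRPS26: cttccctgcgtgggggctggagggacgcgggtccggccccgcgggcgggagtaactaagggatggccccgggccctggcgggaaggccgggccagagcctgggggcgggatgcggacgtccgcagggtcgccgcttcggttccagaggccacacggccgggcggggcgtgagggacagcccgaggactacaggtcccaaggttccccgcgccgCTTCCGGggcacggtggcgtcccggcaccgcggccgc

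The second question was how well the 2 libraries of each pure line agreed. For most of the 78 genes they agreed closely. The median absolute log2 ratio of CPM between libraries was 0.17 in HEK, against 0.25 over all genes with at least 20 counts, and 0.24 in Jurkat, against 0.36. Among protein-coding genes in the CPM range it was 0.20 in HEK, so close to the family, and 0.33 in Jurkat. More than 2-fold differences were seen for 3 genes in HEK (3.85%), against 8.24% of all genes and 3.68% of protein-coding genes in the CPM range. In Jurkat they were seen for 6 genes (7.69%), against 14.1% and 10.1%. These ratios are a description with 1 library on each side. The exact binomial 95% interval of the ratio, which covers counting error only, excluded 1 for 41 genes in HEK and 31 in Jurkat. The share over all genes was not computed, so these counts say nothing particular to the family. Such intervals are narrower in the deeper HEK libraries, so the counts do not compare the lines. PCR copies were not marked, so reads are not independent molecules.

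**Figure D2:**
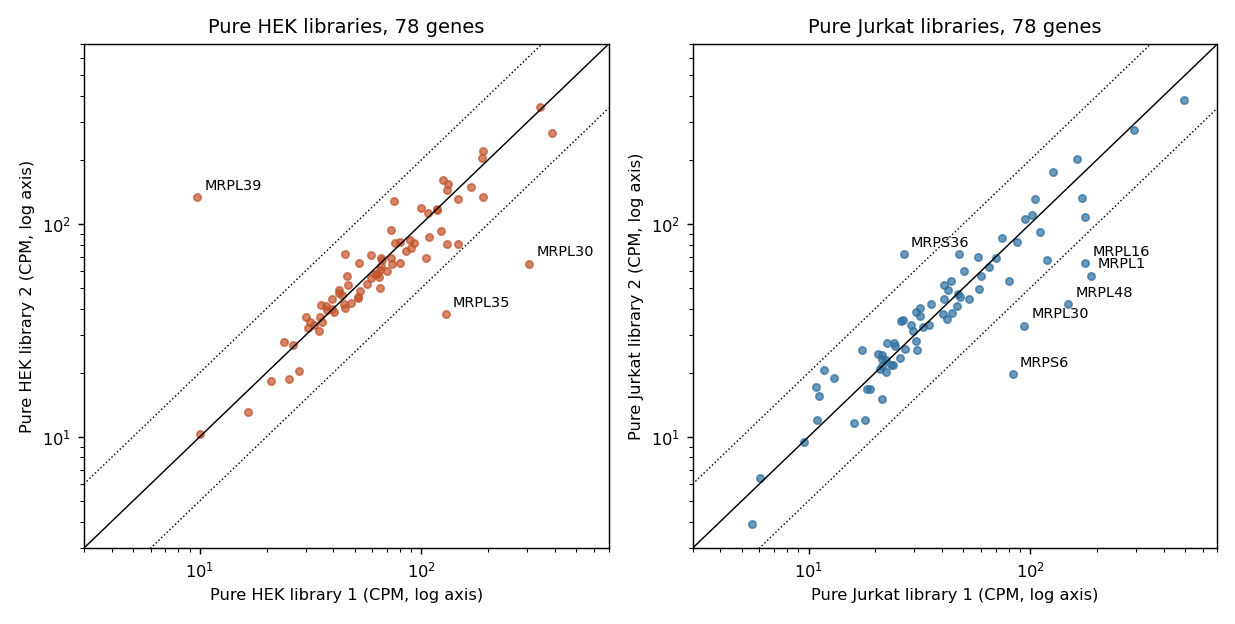
CPM of the 78 genes in the first library (horizontal) and the second library (vertical) of pure HEK (left) and pure Jurkat (right), on log axes. The solid line is equality and the dotted lines are 2-fold, and the genes outside them are named, 3 in HEK and 6 in Jurkat. MRPL39 stands furthest from the line, with 9.76 and 134 CPM in HEK.

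MRPL39 was the extreme case. This gene (ENSG00000154719, GRCh38 chr21:25585656-25607517, minus strand) encodes a large-subunit protein specific to mitochondria that is related to threonyl-tRNA synthetase. In pure HEK it had 9.76 CPM (92 counts) in the first library and 134 CPM (2027 counts) in the second, a ratio of 13.7 (exact binomial 95% interval 11.1 to 17.1). In pure Jurkat it had 6.04 and 6.43 CPM, and in the 10 mixed libraries between 7.44 and 10.5 CPM. The other 13 libraries thus spanned 6.04 to 10.5 CPM with a median of 9.08 CPM, and the second HEK library stood 14.7-fold above that median. In that library MRPL39 alone made up 2.26% of the summed CPM of the 78 genes. Its counts were divided with other loci in 12 of the 14 libraries.

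Among the 16217 genes with at least 20 counts in the 2 HEK libraries together, MRPL39 ranked 80 by absolute log2 ratio between them. Of the expressed genes within 500 kb, ATP5PF had 184 and 211 CPM in the first and second HEK library, GABPA 19.1 and 22.6 CPM, and JAM2 2.86 and 3.56 CPM. These differed little, whereas APP, on the same strand as MRPL39, had 43.1 and 212 CPM. The cause of the MRPL39 and APP values was not tested.

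This single value decided how MRPL39 compared between lines. Its log2 fold change of HEK over Jurkat was 3.30 with an SE of 1.22 and did not pass (edgeR adjusted p = 0.0807), nor did it with DESeq2 (3.34, adjusted p = 0.0758). With all 14 libraries in the fit it passed (3.29, edgeR adjusted p = 0.00754), and without the first HEK library it was 4.22 (edgeR adjusted p = 0.00187). Without the second HEK library it was 0.43 (SE 0.42, edgeR adjusted p = 0.492). The mean ± SD in HEK, 71.8 ± 87.7 CPM (n = 2), therefore described neither library.

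The other genes past 2-fold in HEK were MRPL30 and MRPL35, counterparts of bacterial L30 and L35. MRPL30 had 306 and 65.1 CPM in HEK, a ratio of 4.70 (exact binomial 95% interval 4.37 to 5.06), and 94.2 and 33.3 CPM in Jurkat, a ratio of 2.83 (2.40 to 3.37). It was the only gene of the 78 past 2-fold in both lines. In the mixed libraries it spanned 55.0 to 145 CPM with a median of 92.0 CPM, so it was also variable there. The counts of MRPL30 were divided with other loci in 13 of the 14 libraries. MRPL35 had 128 and 37.6 CPM in HEK, a ratio of 3.41 (3.09 to 3.78), against 50.2 and 59.8 CPM in Jurkat and 43.3 to 78.2 CPM in the mixed libraries. Its reads were divided with other loci in all 14 libraries.

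In Jurkat the largest ratio belonged to MRPS6, the counterpart of bacterial S6, with 83.3 CPM (372 counts) and 19.7 CPM (122 counts), a ratio of 4.22 (exact binomial 95% interval 3.44 to 5.24). Its HEK libraries had 30.2 and 36.6 CPM. MRPL48, part of the central protuberance of the large subunit, had 148 and 42.0 CPM in Jurkat, a ratio of 3.52 (3.05 to 4.08), and 75.0 and 128 CPM in HEK. Both genes had counts divided in all 14 libraries. MRPL1, the counterpart of the bacterial L1 stalk protein, had 188 and 57.2 CPM in Jurkat, a ratio of 3.28 (2.89 to 3.73), against 69.7 and 60.2 CPM in HEK. MRPL16 and MRPS36 were named after their values were seen. MRPL16 had 177 and 65.6 CPM in Jurkat, close to its 65.4 and 63.3 CPM in HEK only in the second library. MRPS36 went the other way, with 26.9 and 72.2 CPM in Jurkat and 42.7 and 47.3 CPM in HEK, and its protein is now known as a part of the 2-oxoglutarate dehydrogenase complex. Without the second Jurkat library, MRPL1, MRPL16 and MRPS6 were called higher in Jurkat with edgeR, and without the first Jurkat library MRPS36 was called. With all 14 libraries in the fit, MRPL1, MRPL16 and MRPL57 were called. The calls of these genes thus depended on which libraries were used. MRPL57 kept a negative log2 fold change without any single pure library. MRPL1 had -0.06 without the first Jurkat library and -1.74 without the second, and MRPS6 had 0.53 and -1.53 in the same order.

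**Figure D3:**
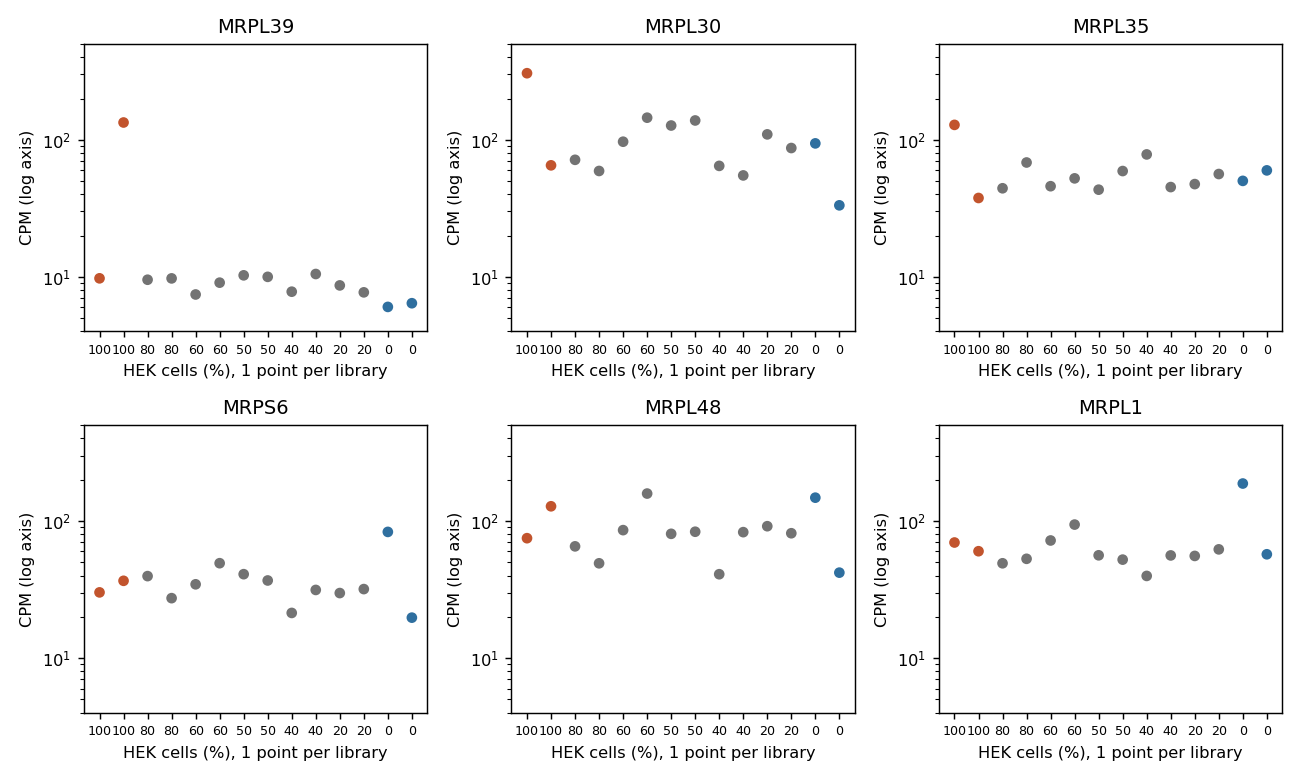
CPM (log axis) of 6 genes in each of the 14 libraries, 1 point per library, ordered by the percentage of HEK cells. Red points are pure HEK, gray points mixtures and blue points pure Jurkat. MRPL39 has 1 point at 134 CPM over 13 points from 6.04 to 10.5 CPM, and the other genes show wide gaps between the 2 red or the 2 blue points.

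High levels in a single library were also sought in the mixtures. By a measure chosen after the values were seen, a gene was counted in a library where its CPM exceeded 2.5 times the median of the other 13 libraries. This gave MRPL30 (3.51-fold) and MRPL35 (2.56-fold) in the first HEK library, MRPL39 in the second, and MRPL1 (3.34-fold) and MRPS6 (2.61-fold) in the first Jurkat library. In the second Jurkat library and in the 10 mixed libraries none of the 78 genes was counted in CPM. The measure was not applied to TPM, where single mixed libraries also stood out. MRPL19 reached 89.6 TPM in a mixed library, against a median of 22.2 TPM over the 14 libraries. MRPS23 reached 58.7 TPM (median 16.5 TPM), MRPS11 66.7 TPM (24.2 TPM) and MRPS30 53.4 TPM (19.8 TPM), also in mixed libraries. These genes were named after their values were seen. Protein-coding genes in the CPM range were counted at 0.651% and 0.781% in the first and second HEK library, at 0.201% to 3.13% per mixed library and at 7.21% and 7.52% in the Jurkat libraries.

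The third question was whether the levels followed the percentage of HEK cells in the 10 mixed libraries, which the pure comparison did not use. No gene of the 78 passed adjusted p 0.05 in edgeR's quasi-likelihood test of the trend, rising or falling, against 0.643% and 4.82% of the 18516 genes tested and 0.592% and 4.33% of protein-coding genes in the CPM range. At unadjusted p under 0.05, 2 had a rising and 5 a falling slope, against 7.27% and 11.3% of all genes. They were named after their values were seen. The positive slopes were those of MRPL13, counterpart of bacterial L13, with a log2 slope of 1.08 per 60 percentage points (SE 0.34, edgeR adjusted p = 0.0967) and MRPL21 with 0.53. The negative slopes were those of MRPS11 (-0.89, SE 0.25, edgeR adjusted p = 0.0613), MRPL33 (-0.72), MRPS5 (-0.71), MRPS25 (-0.57) and MRPL20 (-0.55).

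MRPL13 had 59.3 and 64.7 CPM at 20% HEK, 89.4 and 149 CPM at 40%, 78.7 and 87.6 CPM at 50%, 118 and 164 CPM at 60% and 120 and 162 CPM at 80%. DESeq2 called it rising (slope 1.05, adjusted p = 0.0319). MRPS11, counterpart of bacterial S11, had 63.5 and 49.8 CPM at 20% HEK and 25.5 and 29.6 CPM at 80%, which did not overlap. DESeq2 called MRPS11 (slope -0.92, adjusted p = 0.0195) and MRPL20 (-0.57, adjusted p = 0.0228) falling. In the pure lines MRPS11 and MRPL20 had log2 fold changes of 0.11 and 0.01, so a slope of this size was not mirrored there. With edgeR, MRPL13 passed without the second library at 40% HEK and MRPS11 without the first. With the file-name group as an added term, edgeR called none, as in the main fit. Both libraries at 20% and at 40% HEK were in the group of pure Jurkat. Both at 80% were in that of pure HEK, and only 50% and 60% were split. The group thus largely followed the HEK percentage, and this fit could hardly tell them apart.

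The range of the mixtures limited this test. Fitted over genes outside the family, the HEK share of RNA was lowest in the mixtures with 20% HEK cells (61.9% and 67.7%). It reached 97.5% in a library with 60% HEK cells, while the libraries with 80% gave 85.9% and 96.2%. No mixture was therefore close to pure Jurkat RNA. In a mixed library, fewer cells of a line than planned and less RNA per cell cannot be told apart. For the 22 genes called higher in pure HEK, these shares gave expected log2 slopes from 0.21 to 0.40 with a median of 0.26. The edgeR slopes of these genes had a median of 0.16 and a range from -0.57 to 0.53, and 18 of the 22 were positive, against 41 of all 78. The 78 include the 22, and the share of positive slopes over all genes was not computed. The median slope was 0.03 over the 78 genes and 0.03 over all genes tested. The median SE of a slope over the 78 genes was 0.26, so slopes of the expected size were not detectable in these libraries. MRPL12 had a slope of 0.41 (SE 0.30), MRPL55 of 0.24 (SE 0.26) and MRPL40 of -0.11 (SE 0.24).

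**Figure D4:**
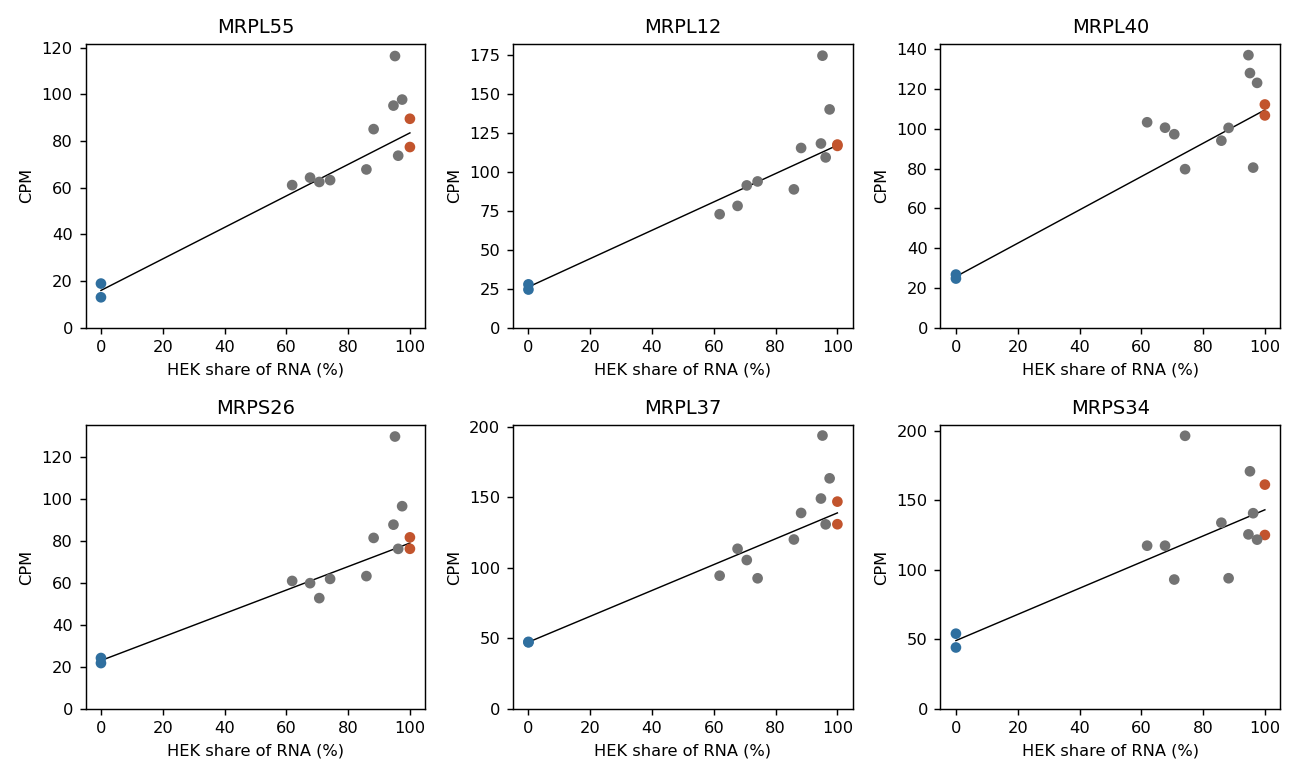
CPM of the 6 genes with the largest called fold changes against the fitted HEK share of RNA in each of the 14 libraries, with pure HEK in red, mixtures in gray and pure Jurkat in blue. The line joins the mean of the pure Jurkat to the mean of the pure HEK libraries and is the level expected from additive mixing. The gray points lie at shares from 61.9% to 97.5%, on both sides of the line, and above both Jurkat libraries in all 6 genes.

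Levels expected from additive mixing are the means of the pure lines weighted by the share of RNA. The median log2 of observed over expected levels was 0.08 over the 78 genes and -0.03 over all genes tested. No gene of the 78 lay above expectation in all 10 mixed libraries with a median beyond 0.5, against 0.228% of all genes tested and 0.0947% of protein-coding genes in the CPM range. MRPL39 (-2.66) and MRPL30 (-0.83) lay below in all 10, against 2.16% of all genes and 1.69% of protein-coding genes in the CPM range. Both had 1 pure HEK library far above the other, and this library enters the expectation. With only the second HEK library as the HEK level, MRPL39 was the 1 gene below, and with only the first, MRPL30 and MRPL35 were. At a limit of 0.25, 3 genes lay above in all 10 libraries, against 0.848% of all genes, and MRPL39 and MRPL30 lay below, against 4.08%. The 3 genes were MRPL46 (0.30) at the central protuberance, MRPL58 (0.31), which retains peptidyl-tRNA hydrolase activity, and MRPS15 (0.26), counterpart of bacterial S15.

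Summed over the 78 genes, the level was 6368 and 5928 CPM in pure HEK, 6148 ± 311 CPM (SD, n = 2), and 4699 and 4163 CPM in pure Jurkat, 4431 ± 379 CPM. The HEK libraries did not overlap the Jurkat libraries, and the ratio of the means was 1.39, or 1.37 without MRPL39. MRPL genes summed to 3248 ± 191 CPM in HEK and 2091 ± 236 CPM in Jurkat, a ratio of 1.55. MRPS genes summed to 2900 ± 121 and 2340 ± 143 CPM, a ratio of 1.24. All these sums are in CPM without TMM, where the median log2 fold change over all genes tested was 0.26.

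The sum did not order the mixtures by their HEK percentage. It was 5896 and 6018 CPM at 20% HEK, 5054 and 6693 CPM at 40%, 5310 and 7057 CPM at 50%, 6826 and 6992 CPM at 60% and 5431 and 5653 CPM at 80%. All 10 mixed libraries lay above both Jurkat libraries, 4 lay above both HEK libraries and 5 below both. Divided by the sum expected from additive mixing, the values ran from 0.895 to 1.16, with 6 of 10 above 1. The 2 libraries at 50% were in different file-name groups, with 5310 CPM in the group of pure Jurkat and 7057 CPM in that of pure HEK. At 60% the libraries were also split, with 6992 and 6826 CPM in the same order, and at 40% both were in the group of pure Jurkat.

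**Figure D5:**
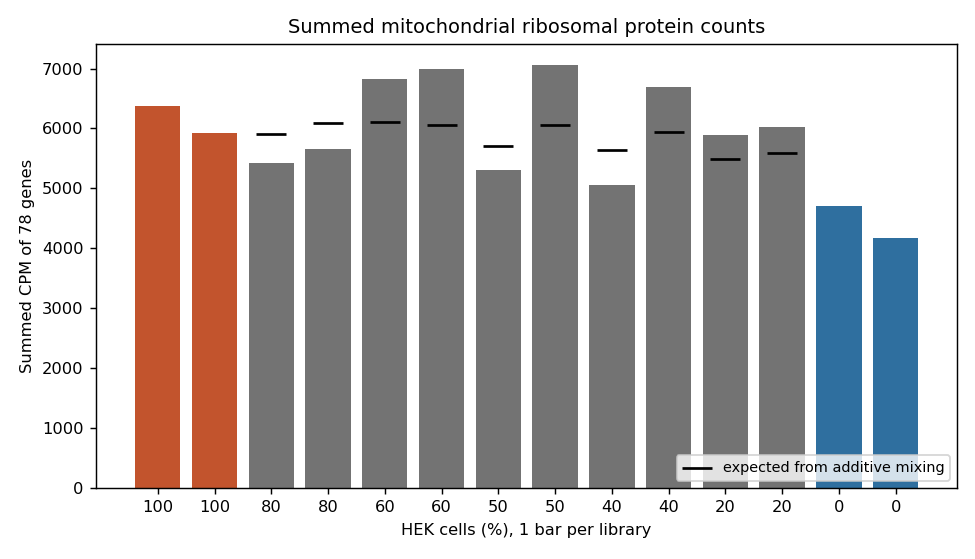
Summed CPM of the 78 genes in each library (bars from 0), ordered by the percentage of HEK cells, with pure HEK in red, mixtures in gray and pure Jurkat in blue. Black dashes are the sums expected from additive mixing. The mixed bars run from 5054 to 7057 CPM and lie on both sides of the dashes, all above the blue bars.

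Other genes of mitochondrial translation were taken from lists chosen with earlier results known, and their counts are read against the 24.2% of all genes tested that were called higher in HEK and the 19.0% called higher in Jurkat. Of 17 mitochondrial aminoacyl-tRNA synthetases, which charge tRNAs in mitochondria, 7 passed as higher in HEK and none as higher in Jurkat with edgeR. Among them was PARS2, with 7.19 and 6.47 CPM in HEK against 1.34 and 1.29 CPM in Jurkat (log2 2.14, SE 0.33). In the mixed libraries IARS2 rose (slope 1.40, edgeR adjusted p = 0.0450). Between the pure lines IARS2 did not pass (log2 0.38, SE 0.37, edgeR adjusted p = 0.443), and its Jurkat libraries stood apart, at 120 and 56.9 CPM. The median log2 fold change of this list was 0.65.

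Of 11 translation factors, 2 were higher in HEK and 1 in Jurkat. TSFM and TUFM, the mitochondrial elongation factors Ts and Tu, had log2 fold changes of 1.11 and 1.09, and MTRFR, a release factor homolog that rescues stalled ribosomes, had -1.12. Of 5 ribosomal subunits with other symbols, AURKAIP1 was higher in HEK (0.84). Of 21 assembly factors, ERAL1, a GTPase that binds the small-subunit rRNA (0.84), and MALSU1, which acts on the large subunit (0.73), were higher in HEK. The median log2 fold changes of these lists were 0.28, 0.37 and 0.27.

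Of the 13 mRNAs of mitochondrial DNA, the templates of this ribosome, 6 were higher in HEK and none in Jurkat with edgeR. MT-CO3, a subunit of cytochrome c oxidase, had 7887 and 9045 CPM in HEK and 2996 and 3292 CPM in Jurkat (log2 1.20, SE 0.21). MT-ATP6, a subunit of ATP synthase, had 8241 and 8452 CPM against 3376 and 4059 CPM (log2 0.94, SE 0.22). MT-CO1 fell over the mixed libraries (slope -1.44, edgeR adjusted p = 0.0130) but its Jurkat libraries stood far apart, at 2242 and 10456 CPM.

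Some limits apply to single genes of the family. Another 86 loci with MRPL or MRPS symbols are not protein-coding, 76 of them processed pseudogenes, and held 0.970% to 2.16% of the counts on MRPL and MRPS loci per library. RSEM divided reads among such loci and genes, so a level of a gene with close copies is uncertain. The libraries were strand-specific, but whether counting used the strand is not given in the sources used here.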

How the data were processed

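RNA-seq libraries of HEK-293T, Jurkat and their mixtures (14 libraries) were analysed. Per the paper's methods and the submitters' processing notes, the authors aligned single-end reads to GRCh38 and ERCC sequences with STAR (2.6.1b) and counted with RSEM (1.3.1). The authors deposited unnormalized expected counts and TPM. The TPM were rescaled here to genes without spike-ins. The annotation release of the authors is not given in the sources used here. The series table of counts was not used. Symbols came from GENCODE release 44, which matched 57799 of 58440 identifiers without version. The genes and gene lists were chosen with earlier results of these data known.

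Expected counts were rounded for edgeR 4.0.16 (TMM, filterByExpr, glmQLFit, glmQLFTest) in R 4.3.3, with Benjamini-Hochberg adjustment over all genes tested at 0.05. Pure lines were compared with 2 libraries each, and the trend was fitted over the 10 mixed libraries. DESeq2 1.42.0, limma 3.58.1 on log2(TPM + 1), other scalings and filters, and each library left out were alternatives. HEK shares of RNA were those with the smallest median absolute log2 residual over 15716 genes outside the family. Observed and expected levels were compared with 0.5 CPM added. Python 3.11.15, numpy 2.4.6, pandas 2.3.3 and scipy 1.17.1 were used, and the steps were tested on simulated data.

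Named genes were MRPL39, up to 6 called genes with the largest fold change per direction, the 3 with the largest ratio between the libraries of each line with at least 20 counts, the 5 highest and 3 lowest in TPM, up to 3 with the largest called slope per direction over the mixed libraries, any with 3 or fewer counts in both libraries of a line, and the MRPS18 paralogs. From each pathway list, up to 2 called genes per direction were named. A gene that this rule names is not reported here. Structural classes were assigned from general knowledge after values were seen.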

Additional observations from a re-analysis of the deposited data

How the results depend on the processing

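The main fit called 22 genes higher in HEK and 1 in Jurkat, and DESeq2 size factors in edgeR gave 20 and 1. DESeq2 gave 18 and 0, the fit of all 14 libraries 25 and 3, and limma on log2(TPM + 1) 28 and 0. No low-count filter gave 34 and 2, and spike-in scaling 78 and 0. Of all genes tested, 23.4% were higher in HEK and 19.7% in Jurkat with DESeq2 size factors, and 16.2% and 13.6% with DESeq2. The shares were 23.8% and 17.9% with all 14 libraries, and 23.95% and 13.79% with limma. They were 16.9% and 11.2% with no filter, and 92.5% and 3.22% with spike-in scaling. For genes higher in HEK, limma and all 14 libraries gave more of the 78 than the main fit, at smaller shares of all genes. With each pure library left out the counts ran from 7 to 16 and from 0 to 3. For the mixed trend, DESeq2 gave 1 rising and 2 falling against 0 and 0, and leaving out each mixed library gave 0 to 1 in either direction. DESeq2 called 1.12% of all genes tested rising and 5.29% falling. Spike-in scaling made all 78 log2 fold changes positive, against 63, and among the genes named by the rule it reversed MRPL1 (2.44), MRPL48 (3.35), MRPL57 (2.78), MRPS18B (3.58), MRPS18C (3.40), MRPS5 (3.00) and MRPS6 (2.68). At 1.5-fold, 8 genes in HEK and 12 in Jurkat differed between libraries, against 20.7% and 31.9% of all genes. At a limit of 0.25, 3 genes lay above additive mixing, and with only 1 pure library of a line the count below it ran from 1 to 2 and the count above was 0. With the HEK share from 5116 genes that differ between lines, chosen after seeing the data, the counts were 0 and 2. Fewer libraries enter when one is left out. For the other alternatives the cause was not tested. In the shallowest library 3 counts correspond to 0.671 CPM, and all 78 genes lay above that in every pure library. No paired analysis was possible because the labels give no replicate numbers.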
